A study of Mus musculus with 38 samples.

Results

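The 7 genes described here are the FGF receptors and their Klotho co-receptors. They were taken by gene symbol from the 55487 genes of the count table, and all 7 were found there: Fgfr1, Fgfr2, Fgfr3 and Fgfr4, the receptor tyrosine kinases, Fgfrl1, the receptor-like member without a kinase domain, and Kl and Klb, which encode alpha-Klotho and beta-Klotho. FGF23 is a hormone from bone that lowers renal phosphate reabsorption and the production of active vitamin D. It binds FGF receptors effectively only when membrane alpha-Klotho stands beside them, so the kidney's response depends on which receptors and how much Klotho its tubule cells carry. Beta-Klotho serves the sister hormones FGF19 (FGF15 in the mouse) and FGF21 in the same way, mainly in liver and fat.

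RNA-Seq was performed on 38 mouse kidney libraries from 3 experiments, to ask what an excess of FGF23 does to the diseased kidney. In the anti-GBM experiment, male C57BL/6 mice (labelled C57BL/6JRj) were immunized at 8 weeks with sheep IgG and given nephrotoxic serum against the glomerular basement membrane, and healthy mice received PBS (whether they were immunized is not given in the sources used here). From 1 day after the serum they received 1 µg of recombinant human FGF23 or vehicle each day for 6 days, giving 4 healthy vehicle, 3 healthy FGF23, 4 anti-GBM vehicle and 3 anti-GBM FGF23 mice. These sizes are those of the labels, and the study's legends instead give n = 3 for the anti-GBM groups and n = 4 for the healthy groups. In the Adriamycin experiment, female BALB/c mice received Adriamycin or its vehicle at 8 weeks and later 1 injection of 1 µg FGF23 or vehicle, with 4 mice in each of the 4 groups. Kidneys of both experiments were collected 24 h after the last injection. Precision-cut kidney slices (PCKS) came from male DBA/2J mice fed 0.2% adenine and were cultured with FGF23 at 200 ng/mL (4 cultures) or vehicle (4 cultures), with no slices of healthy kidney. The labels give 1 h for this treatment, and the study's text gives a longer time. Strain and disease differ between all 3 experiments, only the Adriamycin mice were female and only the slices were cultured. The levels of the experiments are therefore set side by side with no test.

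Summed over genes, the anti-GBM libraries ranged from 13704248 to 23630210 counts, those of the Adriamycin experiment from 15665050 to 27583911, and those of PCKS from 11186925 to 16254987. Each tubule segment, podocyte and endothelial marker on the lists had counts in every library. In the anti-GBM mice all 6 markers of injured tubule and all 8 of fibroblasts and pericytes were higher than in healthy mice, 8 of 9 leukocyte markers were higher and 1, the B cell gene Cd79a, was lower, and 6 of 8 proximal tubule markers were lower, while 0 of 6 podocyte markers passed the test. Of the other kidney lists 2 of 7 endothelial markers were lower, 2 of 8 collecting duct markers higher and 1 lower, and 0 of 4 thick ascending limb markers passed. In the Adriamycin mice none of 6 podocyte markers and none of 8 proximal tubule markers passed, and of the injury markers 1 of 6 was lower. The libraries of mouse NTS5 (anti-GBM vehicle) and of slice culture 1F (FGF23) stood apart in Kl and are left out below where a result rests on them. Mice were labelled as biological replicates, and the study describes the slice cultures as independent replicates as well. RNA came from a fragment of the kidney, and in such bulk samples fewer cells of a type and less RNA per cell cannot be told apart.

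Fgfr3 and Kl were the members that fell together in anti-GBM disease, and the 250 bases before a start that RefSeq annotates for each are shown for this reason, on GRCm38.p6 and written 5′ to 3′ on the gene's strand. RefSeq starts can differ from those of the GENCODE annotation used for the gene positions and transcript lengths of this report. The study counted reads with an Ensembl annotation of another release. The Fgfr3 window reaches past the GENCODE start of Fgfr3, and the windows of Fgfr2, Fgfr4, Fgfrl1 and Klb also lie partly or wholly inside the GENCODE gene. RefSeq lists another Fgfr3 start farther on, whose window (chr5:33722056-33722305, not printed) held 2 GC boxes and 24 CpG dinucleotides. Capitals mark the GC box GGGCGG on either strand (CCGCCC when it lies on the opposite strand), a short motif common in promoters.
Kl, chr5:150952357-150952606, plus strand: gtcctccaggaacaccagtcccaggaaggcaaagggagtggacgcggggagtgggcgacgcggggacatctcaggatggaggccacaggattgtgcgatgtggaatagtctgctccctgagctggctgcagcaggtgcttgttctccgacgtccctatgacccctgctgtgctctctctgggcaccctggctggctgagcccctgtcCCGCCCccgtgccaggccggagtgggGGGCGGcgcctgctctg
Fgfr3, chr5:33721474-33721723, plus strand: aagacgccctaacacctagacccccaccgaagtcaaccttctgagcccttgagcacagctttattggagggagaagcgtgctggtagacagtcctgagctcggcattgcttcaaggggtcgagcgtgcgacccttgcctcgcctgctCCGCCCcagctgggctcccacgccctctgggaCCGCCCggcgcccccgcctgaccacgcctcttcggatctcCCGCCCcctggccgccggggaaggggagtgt
The Kl window held 2 GC boxes and 13 CpG dinucleotides, and the Fgfr3 window printed held 3 GC boxes and 19 CpG dinucleotides. Both were 66.8% G and C, against a median of 52.4% over 32851 promoters of the same length. Of those promoters 32.74% held the motif on at least 1 strand. Of the other members, the window held 2 GC boxes for Fgfr4, 4 for Fgfrl1, and 0 for Fgfr2 and Klb, so the motif also lay beside members that did not pass the main test in this comparison. Fgfr1 had no entry in the table.

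On GRCm38, 4 of the members lie on chromosome 5, all on the plus strand: Fgfr3 (chr5:33721674-33737068), Klb (chr5:65348314-65384007), Fgfrl1 (chr5:108692382-108706924) and Kl (chr5:150952607-150993817). Fgfr1 lies at chr8:25513654-25575718 and Fgfr4 at chr13:55152640-55168759, both on the plus strand, and Fgfr2 at chr7:130162451-133123350 on the minus strand. That span of Fgfr2 is stretched by a long annotated transcript and takes in 69 other annotated genes, on both strands, so it is wider than the main gene body. Reads were counted per gene over all its exons, so the receptor splice forms that differ in ligand binding are summed in each value.

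Per kilobase of transcript, Kl was by far the most abundant member in the kidneys of all 8 animal groups. Its mean CPM per kilobase was highest at 236.9 ± 41.2 (SD, n = 4) in healthy C57BL/6 vehicle mice and lowest at 130.2 ± 7.58 (n = 4) in healthy BALB/c vehicle mice. In each of these groups the lowest Kl library lay above the highest library of any other member. Among the receptors of healthy C57BL/6 vehicle mice, Fgfrl1 had 16.6 ± 1.04, Fgfr1 15.2 ± 0.56, Fgfr4 14.1 ± 0.83 and Fgfr3 12.96 ± 0.85 CPM per kilobase, and each neighbour in this order overlapped the next. Fgfr2 followed at 4.54 ± 0.65, below every library of the other receptors. Klb was last in every group. In healthy BALB/c vehicle mice Fgfrl1, Fgfr3 and Fgfr4 overlapped their neighbours at 20.3 ± 1.33, 19.5 ± 1.60 and 18.4 ± 1.09 CPM per kilobase. Fgfr1 lay just below them at 15.9 ± 0.60, with its highest library at 16.78 against 16.80 for the lowest of Fgfr4. These orders, and those of the slices below, rest on the longest coding transcript. The union of all exons is 9.875 kb against 5.041 kb for Fgfr1, and 3.542 kb against 3.324 kb for Fgfr4. The order among the receptors can therefore change with the length used.

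The order was different in the slices. Fgfr1 came first with 71.0 ± 14.2 CPM per kilobase with vehicle and 73.5 ± 8.63 with FGF23 (n = 4 each), and Fgfrl1 second with 15.2 ± 1.00 and 16.1 ± 1.00. Fgfr2 followed with 7.04 ± 1.045 and 8.62 ± 2.47, and Kl came after it with 5.04 ± 1.53 and 7.47 ± 4.46, overlapping both Fgfr2 above and Fgfr4 below. Marker levels differed as well. The summed level of 8 proximal tubule markers was 307.2 to 760.1 CPM in the 8 slice cultures. It was 6794 to 15633 CPM in the mice of the anti-GBM experiment. The sum of 8 fibroblast and pericyte markers was 1627 to 3424 CPM in the slices. In that experiment it was 335.4 to 493.1 CPM in healthy vehicle mice and 1033 to 1518 CPM in anti-GBM vehicle mice. In anti-GBM FGF23 mice it was 1497 to 2012 CPM, which overlapped the slices. Fgfr1 was 83.4 to 87.8 CPM in those anti-GBM FGF23 mice and 270.0 to 427.5 CPM in the slices. The part of these markers in the receptor order of the slices was not tested.

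**Figure D1:**
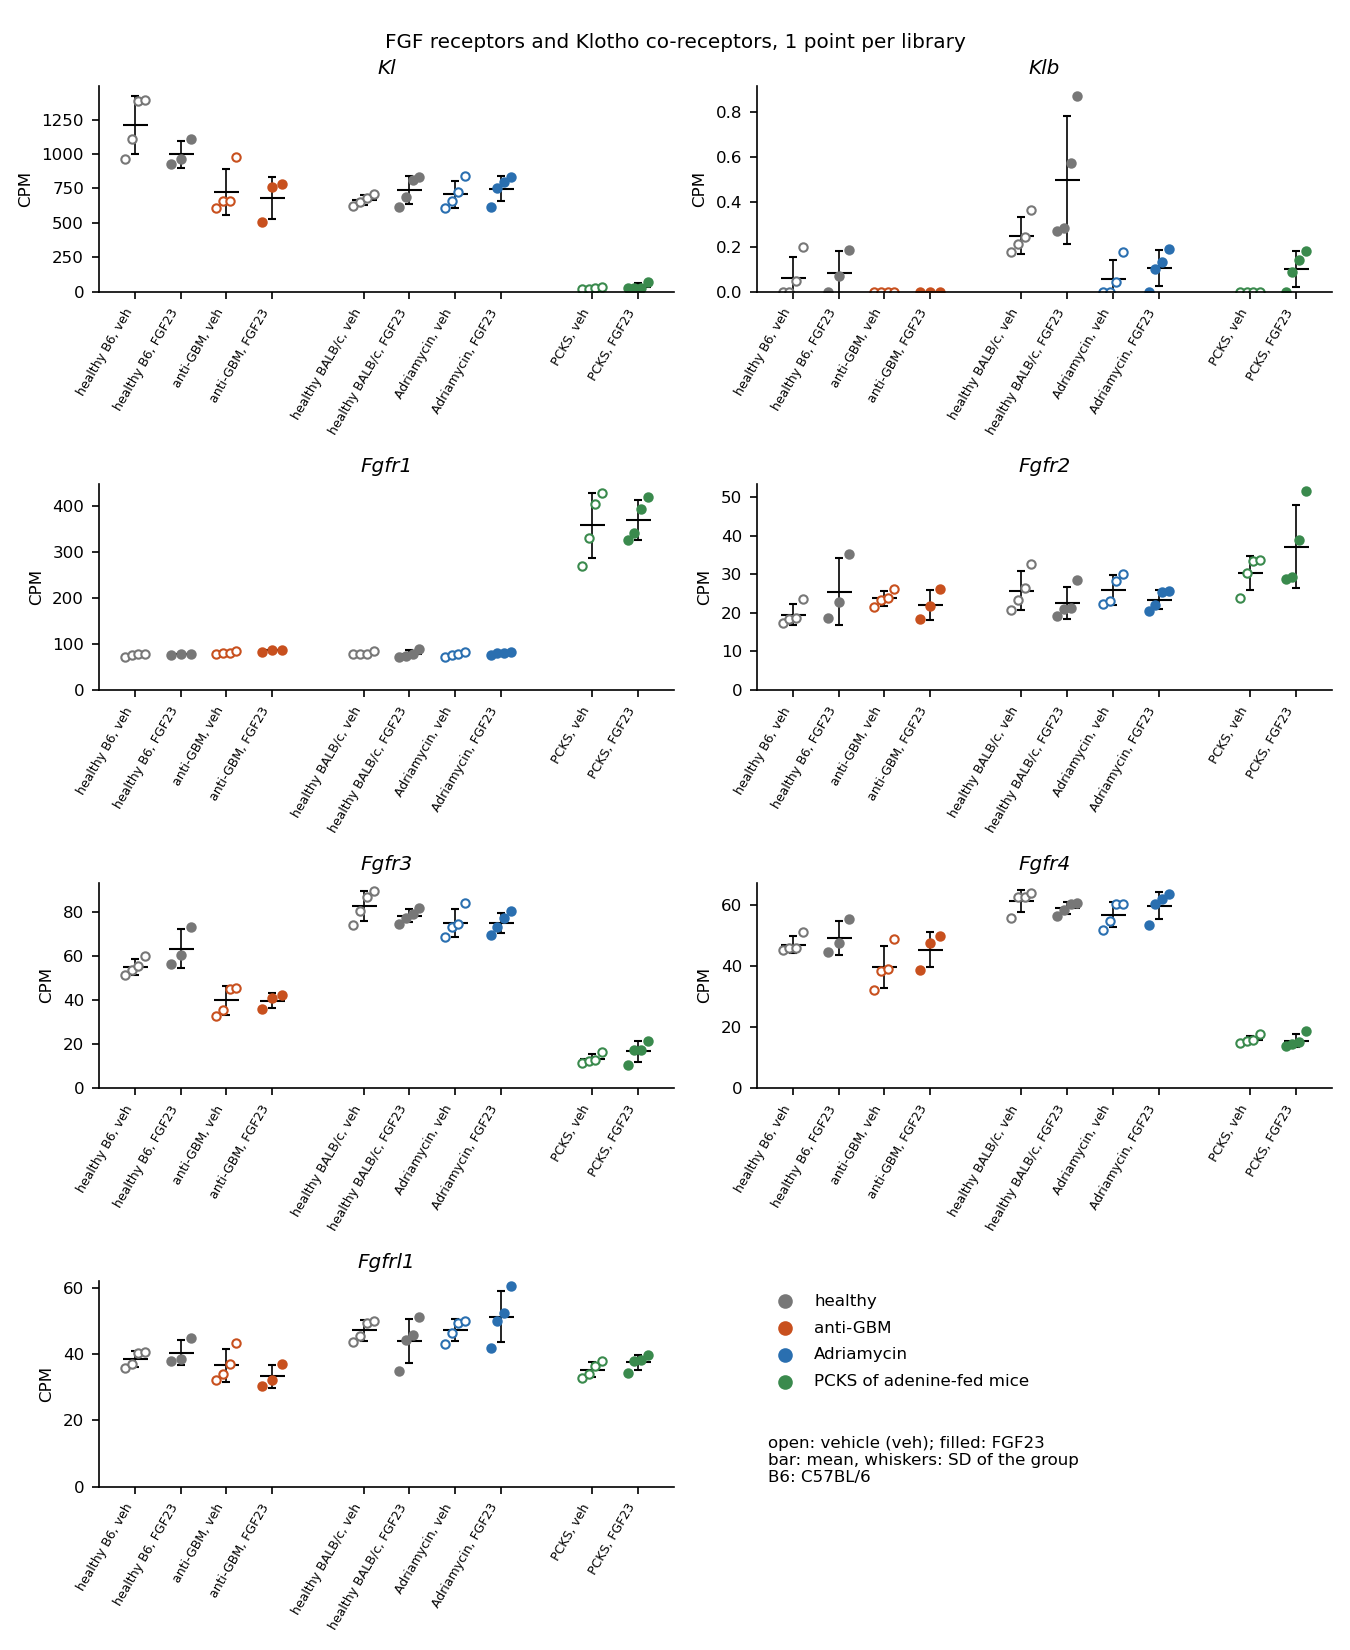
CPM (counts scaled to library size) of the 7 members in each of the 38 libraries, with 1 panel per gene and its own axis starting at 0. Open points are vehicle, filled points FGF23, bars the group mean and whiskers the SD. Fgfr3 of the anti-GBM mice lies below every healthy C57BL/6 mouse, Kl is near 0 on its axis in the slices, and Fgfr1 is highest there.

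Kl, the co-receptor that makes FGF receptors responsive to FGF23, was lower in anti-GBM disease, in a comparison that called 48.3% of 15859 genes. Its level was 967, 1106, 1387 and 1390 CPM in the healthy vehicle mice and 927, 961 and 1110 CPM in the healthy FGF23 mice. In the anti-GBM mice it was 610, 658, 660 and 976 CPM with vehicle and 506, 760 and 780 CPM with FGF23. Of the 7 anti-GBM mice 6 lay below every healthy mouse, and mouse NTS5, at 976 CPM, lay above 3 healthy mice. NTS5 also had the lowest sum of the tubule injury markers among the anti-GBM mice, 3927 CPM against 5046 to 16278 CPM. With the mean of both anti-GBM groups set against the mean of both healthy groups, Kl fell by 36.1%, a log2 fold change of -0.65 (SE 0.13, edgeR quasi-likelihood test, adjusted p = 0.00127). Without mouse NTS5 the log2 fold change was -0.70 (adjusted p = 2.35e-04). Within the vehicle groups it was -0.74 (SE 0.18, adjusted p = 0.00466), and within the FGF23 groups -0.55 (SE 0.20, adjusted p = 0.0571).

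Fgfr3, an FGF receptor of renal tubules that FGF23 can use, showed the clearest separation among the members. Its level was 51.3, 53.6, 55.2 and 59.9 CPM in the healthy vehicle mice and 56.4, 60.6 and 73.2 CPM in the healthy FGF23 mice. In the anti-GBM mice it was 32.9, 35.7, 45.1 and 45.7 CPM with vehicle and 35.9, 41.0 and 42.2 CPM with FGF23. The highest anti-GBM mouse lay below the lowest healthy mouse, and Fgfr3 was the only member of the 6 tested without overlap between the states. The comparison called 48.3% of all genes, and the share of genes without overlap was not counted. The separation thus cannot be called particular to Fgfr3. Fgfr3 fell by 32.5%, a log2 fold change of -0.57 (SE 0.09, adjusted p = 1.22e-04). The fall passed the test within the vehicle groups (-0.46, SE 0.11, adjusted p = 0.00583) and within the FGF23 groups (-0.67, SE 0.13, adjusted p = 0.0021). A gene on the opposite strand, G630022F23Rik, overlaps the start of Fgfr3, and whether the counting used strand is not given in the sources used here.

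Fgfr1, the broadly expressed receptor that stromal cells also carry, went slightly the other way. It was 72.5 to 78.6 CPM in the healthy vehicle mice and 75.4 to 79.2 CPM in the healthy FGF23 mice. In the anti-GBM mice it was 78.8, 81.0, 81.1 and 84.7 CPM with vehicle and 83.4, 87.2 and 87.8 CPM with FGF23. The groups of the 2 states overlapped only at the lowest anti-GBM mouse. The rise was 8.77%, a log2 fold change of 0.12 (SE 0.04, adjusted p = 0.0277). The call was not reached within the vehicle groups (log2 fold change 0.09, adjusted p = 0.211) or within the FGF23 groups (0.15, adjusted p = 0.0903). It was also lost without healthy FGF23 mouse NTS10 (adjusted p = 0.0505) and with adjustment over the 4 comparisons of the experiment combined (adjusted p = 0.0953). An antisense gene, Gm16159, overlaps Fgfr1, with the same open point on strand as for Fgfr3.

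The remaining receptors did not pass the test. Fgfr4, the receptor of liver and proximal tubule, was 44.6 to 55.3 CPM in the 7 healthy mice and 32.3 to 49.9 CPM in the 7 anti-GBM mice, a log2 fold change of -0.18 (SE 0.09, adjusted p = 0.112). Fgfrl1 was 35.9 to 44.8 and 30.6 to 43.6 CPM (log2 fold change -0.18, SE 0.08, adjusted p = 0.0688). Without mouse NTS5 both were called, Fgfr4 at -0.20 (adjusted p = 0.0461) and Fgfrl1 at -0.19 (adjusted p = 0.0263), and Fgfrl1 was also called without anti-GBM FGF23 mouse NTS16 (-0.22, adjusted p = 0.0342). Fgfr2, an epithelial receptor found in collecting duct, was 17.3 to 35.1 and 18.3 to 26.1 CPM (log2 fold change 0.03, SE 0.13, adjusted p = 0.854). In all, 3 of the 6 tested members were called, 1 higher and 2 lower, in a comparison in which 48.3% of all 15859 genes tested were called, 23.6% higher and 24.7% lower (54.5% at an unadjusted p below 0.05). The members' share was thus near that of all genes. No member moved by more than 1 on the log2 scale, so 0 were called when that was required as well.

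In Adriamycin nephropathy none of the 6 tested members passed the test, in a comparison that called 1.94% of 16020 genes, 0.968% in each direction. At an unadjusted p below 0.05, 15% of genes and 0 of the 6 members passed, and DESeq2 called 0 of these 6 as well. Kl was 617 to 835 CPM in the 8 healthy BALB/c mice and 606 to 838 CPM in the 8 Adriamycin mice (log2 fold change 0.05, SE 0.08, adjusted p = 0.815). Fgfr3 was 74.1 to 89.3 and 68.5 to 83.8 CPM, with the smallest p of the members (log2 fold change -0.10, SE 0.05, unadjusted p = 0.0521, adjusted p = 0.339). Fgfr1 was 72.5 to 89.8 and 71.8 to 83.4 CPM, Fgfr2 19.2 to 32.7 and 20.5 to 29.997, Fgfr4 55.8 to 63.8 and 51.97 to 63.7, and Fgfrl1 34.9 to 51.2 and 42.0 to 60.7. All 6 overlapped between the states. Whether the Adriamycin and anti-GBM effects differ was not tested, since the experiments share no mice, strain or sex.

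**Figure D2:**
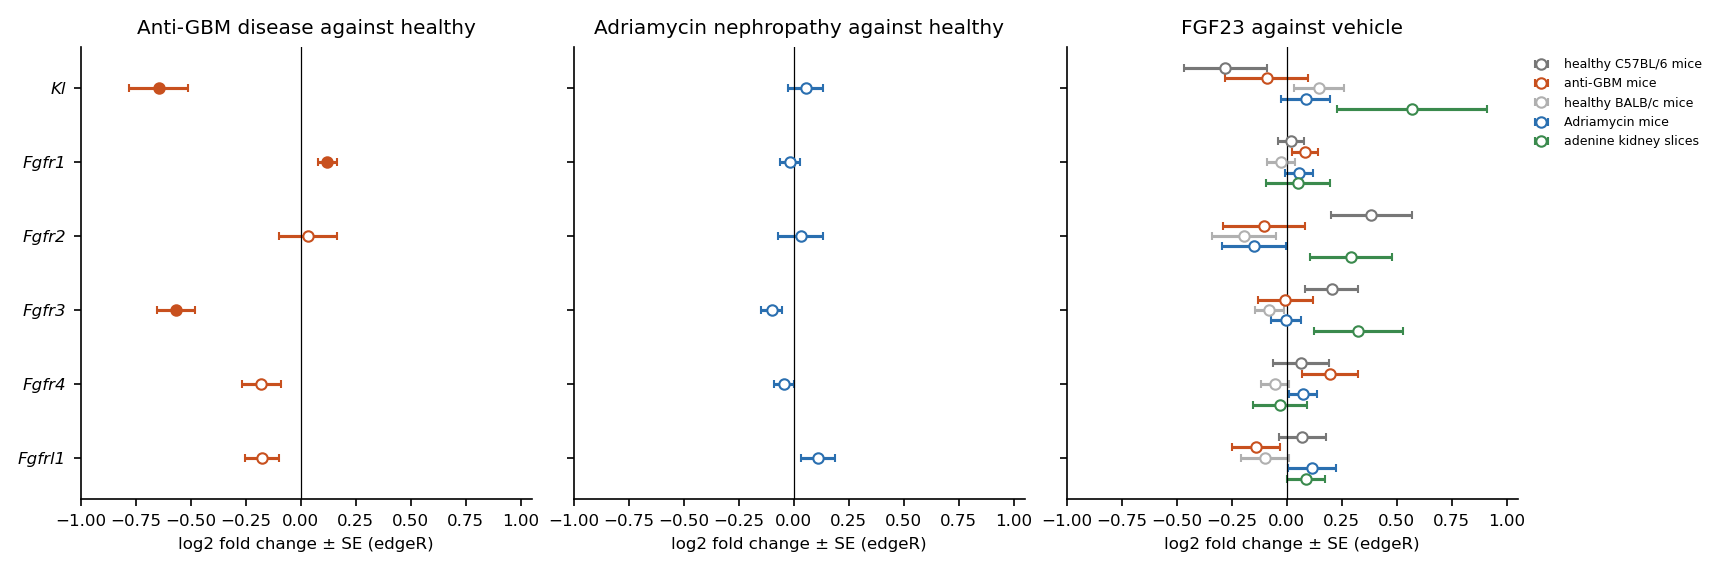
Log2 fold changes of the 6 tested members with their SE from edgeR, for anti-GBM disease (left), Adriamycin nephropathy (middle) and the 5 FGF23 comparisons (right). Filled points have an adjusted p below 0.05, which holds for Kl (-0.65), Fgfr3 (-0.57) and Fgfr1 (0.12) in anti-GBM disease, and open points do not.

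The make-up of the receptor pool changed with anti-GBM disease. Counts of Fgfr1 to Fgfr4 were divided by the length of the longest coding transcript, and each receptor was expressed as a percent of their sum, a value that does not depend on the scaling of a library. The share of Fgfr3 was 28.3% ± 2.16 (SD, n = 7) in healthy C57BL/6 mice and 21.3% ± 2.03 (n = 7) in anti-GBM mice, 7.03 percentage points lower. The share of Fgfr1 was 31.5% ± 1.46 and 37.8% ± 2.37, a rise of 6.33 points. Neither receptor overlapped between the states. Both had the smallest p that a 2-sided exact permutation test of 7 against 7 can give (p = 5.83e-04, adjusted over 8 values p = 0.00233). Fgfr2 held 10.5% ± 2.67 and 12.2% ± 1.68 (exact permutation test, adjusted p = 0.348). Without healthy FGF23 mouse NTS10 its difference was 2.64 points and was called (exact permutation test, adjusted p = 0.0249). Fgfr4 held 29.7% ± 1.78 and 28.7% ± 2.61 (exact permutation test, adjusted p = 0.566). Shares sum to 100%, so a fall in 1 receptor lifts the others. The shares are made from the counts already tested per gene, where Fgfr1 moved by a log2 fold change of 0.12 and overlapped between the states. They are no result separate from those tests. The comparison called 48.3% of all genes, and how often the shares of other gene sets separate was not counted.

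In the Adriamycin experiment the shares stayed close to each other. Fgfr1 was 26.99% ± 1.49 in 8 healthy and 27.6% ± 1.22 in 8 Adriamycin mice, Fgfr2 9.61% ± 1.86 and 10.1% ± 1.55, Fgfr3 32.4% ± 1.16 and 31.2% ± 1.80, and Fgfr4 30.97% ± 0.74 and 31.04% ± 1.83. The smallest adjusted p was that of Fgfr3 (exact permutation test, p = 0.138, adjusted p = 0.348). In the slices Fgfr1 made up 82.3% ± 1.94 of the pool with vehicle and 80.8% ± 3.23 with FGF23 (n = 4 each), while Fgfr3 held 3.74% ± 0.82 and 4.31% ± 1.02. The height of a share depends on the length used: with the union of all exons the mean share of Fgfr4 in healthy C57BL/6 mice was 42.8%, and the Fgfr3 groups overlapped, at 22.8 to 28.4% in healthy and 17.3 to 23.03% in anti-GBM mice, with the difference still called (exact permutation test, adjusted p = 0.00466).

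**Figure D3:**
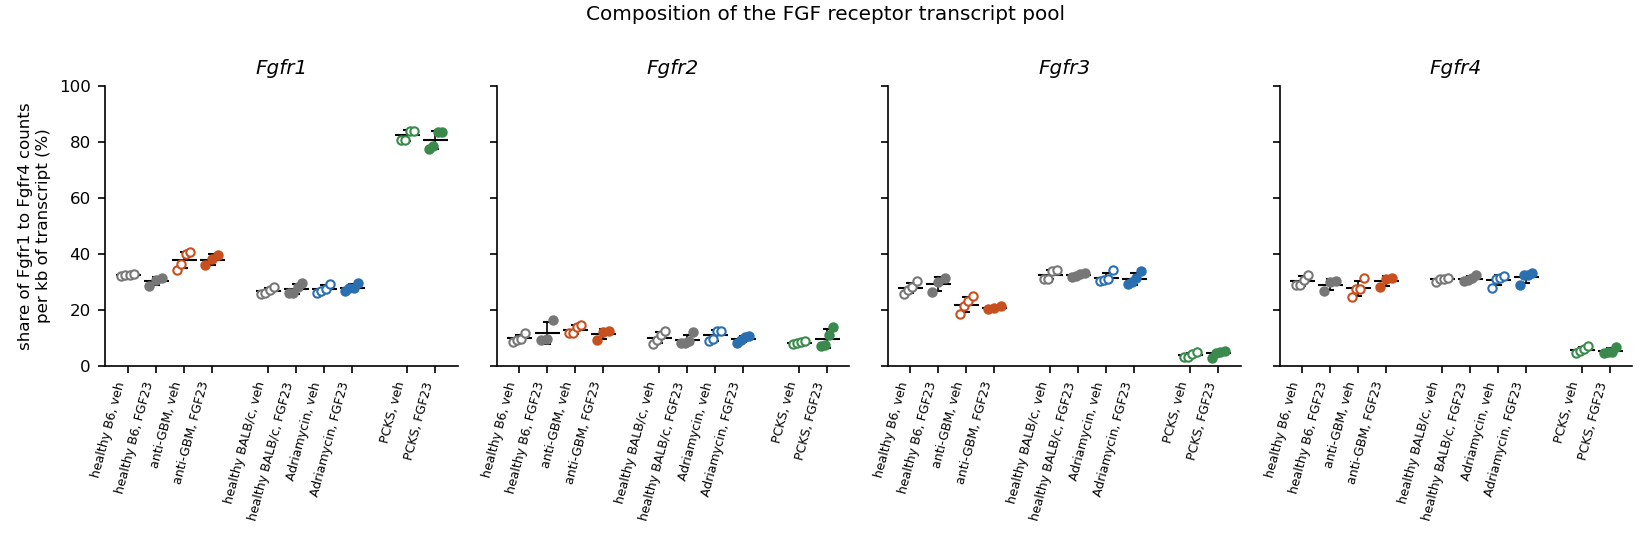
Share of each of the 4 kinase receptors in their summed counts per kilobase, in percent, for each library. Open points are vehicle, filled points FGF23, bars the mean and whiskers the SD. Anti-GBM mice lie below healthy C57BL/6 mice for Fgfr3 and above them for Fgfr1, and Fgfr1 makes up 77.6% or more of the pool in each slice culture.

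Kl and Fgfr1 were next set against markers of the cells that carry them. Kl is strongest in the distal convoluted tubule and also present in the proximal tubule. The mean of 7 distal tubule markers did not fall with Kl in anti-GBM disease. The log2 CPM of Kl minus that mean was 3.44 ± 0.22 (SD, n = 7) in healthy C57BL/6 mice and 2.64 ± 0.20 (n = 7) in anti-GBM mice, a difference of -0.79 with no overlap (2-sided exact permutation test, p = 5.83e-04, adjusted over 4 values p = 0.00117). Of the distal markers 1 was higher (Trpv5, log2 fold change 0.94) and 1 lower in anti-GBM mice, and their summed level was 1402 to 3124 CPM in healthy and 1353 to 2664 CPM in anti-GBM mice. Among healthy mice the distal sum did go with Kl. Mice NTS3 and NTS4 had the highest Kl (1387 and 1390 CPM) and the highest distal sums (2435 and 3124 CPM). Proximal tubule markers fell with Kl: 6 of 8 were lower, with a median log2 fold change of -0.56, and their sum was 11964 to 15633 CPM in healthy and 6794 to 13080 CPM in anti-GBM mice. Relative to the proximal markers, an alternative added after the data were seen, Kl was 0.18 ± 0.10 in healthy and 0.14 ± 0.14 in anti-GBM mice, a difference of -0.05 (exact permutation test, p = 0.470). Mouse NTS5, with the highest Kl of the anti-GBM mice, also had their highest proximal sum (13080 CPM) and distal sum (2664 CPM).

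Fgfr1 was set against 8 fibroblast and pericyte markers, which summed to 335.4 to 493.1 CPM in healthy and 1033 to 2012 CPM in anti-GBM mice. Relative to the mean of these markers Fgfr1 was 1.41 ± 0.35 in healthy and -0.02 ± 0.18 in anti-GBM mice on the log2 scale, a difference of -1.43 with no overlap (exact permutation test, adjusted p = 0.00117). Fgfr1 therefore rose far less than this marker list, whose median log2 fold change was 1.26. All 8 markers were called higher while Fgfr1 moved by 0.12, so the difference mostly restates the rise of the list. It is no separate result on Fgfr1. In the Adriamycin experiment neither value was called: Kl minus distal markers was 2.76 ± 0.09 in healthy and 2.71 ± 0.06 in Adriamycin mice (exact permutation test, adjusted p = 0.199), and Fgfr1 minus fibroblast markers 1.59 ± 0.47 and 2.08 ± 0.48 (exact permutation test, adjusted p = 0.0773). The latter was called when Adriamycin mouse Ad6 (exact permutation test, adjusted p = 0.0497), healthy mouse Ad12 (adjusted p = 0.0228) or Adriamycin mouse Ad16 (adjusted p = 0.0398) was left out.

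**Figure D4:**
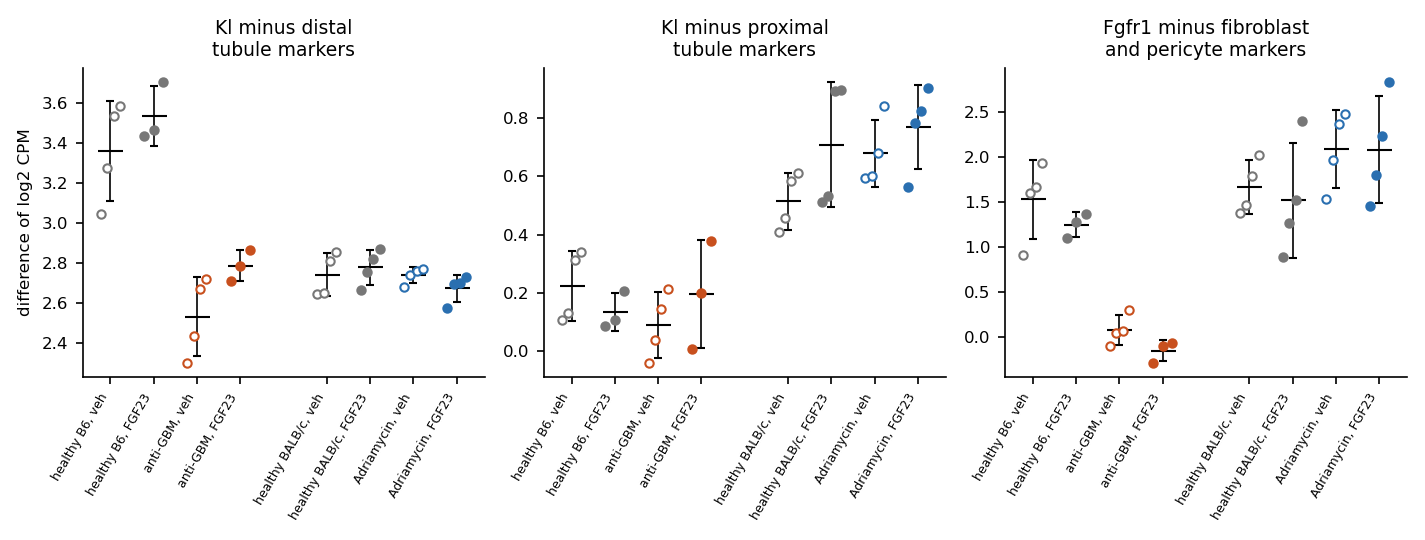
Log2 CPM of Kl minus the mean log2 CPM of distal tubule markers (left) or proximal tubule markers (middle), and of Fgfr1 minus fibroblast and pericyte markers (right), for each of 30 mice. Bars are means and whiskers the SD. Anti-GBM mice lie apart from healthy C57BL/6 mice in the left panel (-0.79) and the right panel (-1.43), and among them in the middle panel (-0.05).

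Klb was at the edge of detection in kidney. It did not pass the count filter in any experiment and so has no main test. The 7 healthy C57BL/6 mice held 10 Klb counts in all, 0 to 4 per library with 3 at 0, and the 7 anti-GBM mice held 0. The 8 healthy BALB/c mice held 69 counts, 4 to 22 per library, and the 8 Adriamycin mice 13, 0 to 4 per library with 3 at 0. In PCKS the vehicle cultures held 0 and the FGF23 cultures 2, 2, 1 and 0 counts. A count of 0 is compatible with a true value of up to 3 counts in that library.

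With no filter, Klb was lower in Adriamycin mice by a log2 fold change of -2.18 (SE 0.49, adjusted p = 0.0218), and with DESeq2 by -2.26 (SE 0.59, adjusted p = 0.0087). In the anti-GBM mice it was called with no filter (adjusted p = 0.0384) and not with DESeq2 (unadjusted p = 0.159). Healthy C57BL/6 mice NTS3 and NTS9 held 4 Klb counts each and had the highest adipocyte marker sums of that experiment, 134.0 and 134.1 CPM. The median sum was 7.83 CPM in healthy C57BL/6 and 9.96 CPM in anti-GBM mice. In the Adriamycin experiment fat markers moved with Klb: all 8 adipocyte markers were lower in Adriamycin mice, 3 past the test. Their summed level was 3.26 to 289.1 CPM (median 23.4) in healthy BALB/c and 1.91 to 17.9 CPM (median 3.04) in Adriamycin mice. The 3 libraries with 10 or more Klb counts were the 3 healthy BALB/c libraries with the highest adipocyte sums. Among libraries with a sum of at most 30 CPM, a subset chosen after the data were seen, 5 healthy BALB/c mice held 4 to 6 Klb counts and 8 Adriamycin mice 0 to 4. The part of perirenal fat in the Klb counts was not tested.

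**Figure D5:**
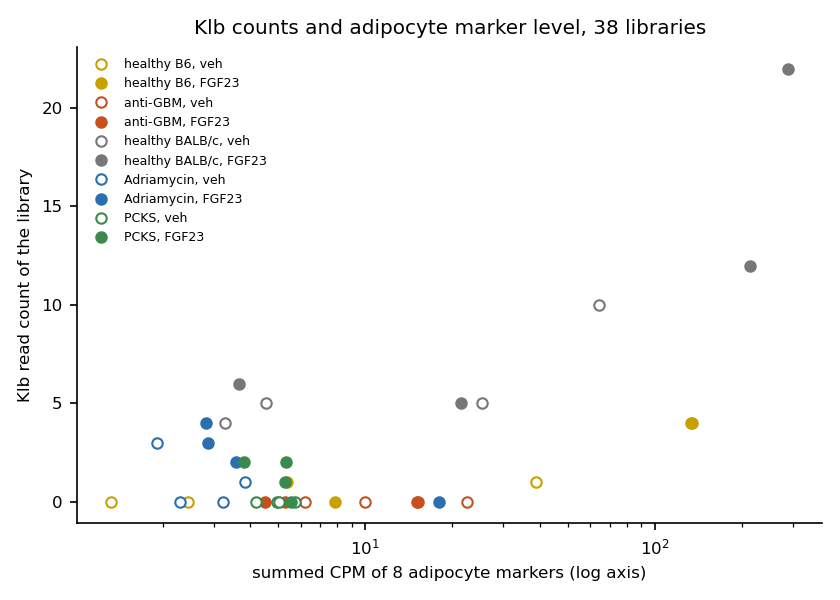
Klb read count against the summed CPM of 8 adipocyte markers (log axis) in the 38 libraries, colored by group, with open points for vehicle and filled points for FGF23. The highest Klb counts, 10, 12 and 22, belong to the healthy BALB/c mice with the highest adipocyte sums, and the 7 anti-GBM mice sit at 0.

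None of the 6 tested members passed the test for FGF23 in any of the 5 comparisons with vehicle, with edgeR or with DESeq2, and none had an unadjusted p below 0.05. In healthy C57BL/6 mice edgeR and DESeq2 both called 0% of genes (4.34% had an unadjusted p below 0.05 with edgeR). Fgfr2 had the largest shift there, a log2 fold change of 0.39 (SE 0.18, unadjusted p = 0.0558, adjusted p = 0.996). It was 17.3, 18.5, 18.7 and 23.7 CPM with vehicle and 18.6, 22.8 and 35.1 CPM with FGF23, and without mouse NTS10, the highest, the value was 0.08. That mouse also had the highest collecting duct marker sum of the experiment, 965 CPM against 536 to 581 CPM in the other mice of its group and 545 to 746 CPM with vehicle, whose part in the value was not tested. Kl was -0.28 (SE 0.19) and Fgfr3 0.20 (SE 0.12). All 7 distal tubule markers (median -0.47) and 7 of 8 proximal tubule markers (median -0.21) were negative as well in this comparison, with 0 called. In anti-GBM mice 0.24% of genes were called with 6 days of FGF23 (0.233% higher, 0.00631% lower, 12.6% at an unadjusted p below 0.05, and 0.939% with DESeq2), and the members ranged from -0.14 (SE 0.11) for Fgfrl1 to 0.20 (SE 0.13, adjusted p = 0.516) for Fgfr4, with Kl at -0.09 (SE 0.19). The interaction of FGF23 and disease called 0.0315% of genes (8.3% at an unadjusted p below 0.05, and 0.27% with DESeq2) and no member, with the largest value at Fgfr2 (-0.49, SE 0.26, adjusted p = 0.647).

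In the Adriamycin experiment FGF23 was injected once, 24 h before the kidneys were taken. In healthy BALB/c mice 0% of genes were called with edgeR (6.69% at an unadjusted p below 0.05) and 0.134% with DESeq2, and the members ranged from -0.19 (SE 0.15) for Fgfr2 to 0.15 (SE 0.11, adjusted p = 0.851) for Kl. In Adriamycin mice 0.0375% of genes were called (5.69% at an unadjusted p below 0.05, and 0.208% with DESeq2), and the members ranged from -0.15 (SE 0.15) for Fgfr2 to 0.12 (SE 0.11) for Fgfrl1, with Kl at 0.09 (SE 0.11, adjusted p = 0.991). The interaction called 0% of genes with edgeR (5.11% at an unadjusted p below 0.05) and 0.0127% with DESeq2.

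In the slices 0% of genes were called with edgeR (4.89% at an unadjusted p below 0.05) and 0.00674% with DESeq2. Kl was 19.5, 20.5, 26.5 and 36.6 CPM with vehicle and 25.4, 25.9, 29.3 and 72.3 CPM with FGF23. The FGF23 cultures overlapped the vehicle cultures except for culture 1F. The log2 fold change was 0.57 (SE 0.34, adjusted p = 0.849), and without culture 1F it was 0.07. That culture was high in tubule markers as well: its Kl was 2.80 times the median of the other 7 cultures, its distal tubule sum 1.83 times, its thick ascending limb sum 1.82 times, its proximal sum 2.01 times and its collecting duct sum 4.51 times. Fgfr1 was 270.0 to 427.5 CPM with vehicle and 327.4 to 419.8 CPM with FGF23 (log2 fold change 0.05, SE 0.15). Fgfr2 (0.29, SE 0.19) and Fgfr3 (0.32, SE 0.20) were not called either.

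The genes around the receptors were taken from 6 lists written for the pathway. Their counts in anti-GBM disease stand against a background of 48.3% of all genes called, 23.6% higher and 24.7% lower, and are given as a description. Of the 18 FGF ligands 6 passed the count filter in the anti-GBM experiment, and 2 were higher and 1 lower in disease, a share near the background. Fgf2, a paracrine ligand stored on heparan sulfate, rose from group means of 2.50 and 2.43 CPM in healthy to 5.21 and 5.38 CPM in anti-GBM mice (log2 fold change 1.09, SE 0.21, adjusted p = 6.09e-04). Fgf18 rose by 1.06 (SE 0.26, adjusted p = 0.00445) on the log2 scale. Fgf1, a ligand that binds every FGF receptor, fell by 0.55 (SE 0.16, adjusted p = 0.0113). Fgf23 itself had at most 1 count in any mouse. In the slices it reached 37 counts, with 1.83 ± 1.12 CPM with vehicle and 2.05 ± 0.74 CPM with FGF23 (n = 4 each, log2 fold change 0.21, adjusted p = 0.942).

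Among the feedback and immediate target genes of FGF and MAPK signaling, 6 of 15 were higher and 4 lower in anti-GBM disease (all genes 23.6% and 24.7%), with a list median of 0.26 against -0.02 for all genes. The ERK phosphatase Dusp5 rose by 1.86 (SE 0.24) on the log2 scale, Ier3 by 1.29 (SE 0.20), Spred3, an inhibitor of Ras signaling, by 0.97 (SE 0.20) and the transcription factor Etv4 by 1.92 (SE 0.43). Of the 20 adaptors and MAPK arm genes 5 were higher and 8 lower (all genes 23.6% and 24.7%), with a median of -0.11. The docking protein Frs3, which couples FGF receptors to Ras, fell by 0.79 (SE 0.13), the kinase Braf by 0.65 (SE 0.09), and the Ras exchange factors Sos1 and Sos2 by 0.47 (SE 0.09) and 0.31 (SE 0.06). Of the 13 membrane partners 5 were higher and 3 lower (all genes 23.6% and 24.7%), with the syndecans Sdc1 (0.97, SE 0.11) and Sdc3 (0.73, SE 0.07) and the glypican Gpc3 (1.46, SE 0.18) higher and the FGF receptor-binding protein Flrt3 (-1.07, SE 0.18) lower. Heparan sulfate proteoglycans of these families hold FGF ligands at the cell surface. Injury, fibroblast and leukocyte markers rose in the same mice, and their part in these list counts was not tested.

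Of the proteases that cut Klotho from the membrane, 2 of 3 were higher in anti-GBM mice, where 23.6% of all genes were, by small amounts: Adam17 by 0.22 (SE 0.05, adjusted p = 0.00481) and Bace1 by 0.27 (SE 0.07, adjusted p = 0.00488). Adam10, the 1 not called, had a log2 fold change of -0.04 (SE 0.09). Of the 10 renal genes that FGF23 regulates through Klotho, 4 were higher and 3 lower in anti-GBM mice (all genes 23.6% and 24.7%). Slc34a3, a sodium phosphate cotransporter of the proximal tubule, fell by 0.86 (SE 0.13) and the phosphate transporter Slc20a2 by 0.28 (SE 0.06). The kinase Sgk1 rose by 1.89 (SE 0.26) and the distal calcium channel Trpv5 by 0.94 (SE 0.18). Cyp27b1, which makes active vitamin D, rose by 1.46 (SE 0.33, adjusted p = 0.00216). Cyp24a1, which breaks it down, was at -0.01 (adjusted p = 0.990).

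In the Adriamycin mice 1 of the 67 tested genes of the 6 lists was called, where 1.94% of all genes were: Cyp27b1 had group means of 16.7 and 7.86 CPM in healthy vehicle and FGF23 mice and 4.997 and 5.50 CPM in Adriamycin mice (log2 fold change -1.12, SE 0.25, adjusted p = 0.0308). For FGF23, edgeR called 0 listed genes in each of the 5 comparisons. In anti-GBM mice all 10 renal target genes had negative log2 fold changes with FGF23, with a median of -0.36 against -0.0017 for all genes. The largest was Cyp24a1 at -2.09 (SE 0.88, adjusted p = 0.365), which was 48.6 to 281.5 CPM with vehicle and 9.60 to 78.0 CPM with FGF23. Other lists were negative too in this comparison, with 0 called: 7 of 7 distal tubule markers (median -0.31), 7 of 8 proximal tubule markers (median -0.27), 8 of 8 collecting duct markers (median -0.10) and 7 of 7 endothelial markers (median -0.20). All 4 thick ascending limb markers were positive (median 0.25).

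The members were also compared with each other and with the 15243 genes tested in both animal experiments, over the 30 mice, as Pearson's r of log2 CPM after the mean of each experiment was subtracted. These are descriptions with no test, and the mice share strain and sex within an experiment and differ in sequencing depth. Kl and Fgfr3 had r = 0.61, Fgfr3 and Fgfr4 0.66, and Fgfr1 and Fgfr3 -0.36. Subtracting the mean of each group instead removes the average effects of disease and FGF23, while differences between mice within a group, also in severity of disease, remain. Kl and Fgfr3 then had r = 0.22, Fgfr3 and Fgfr4 0.59 and Kl and Fgfrl1 0.53. Among the genes most like Kl across the experiments were Tmem64 (0.94) and Mfsd1 (0.93), and within groups Car12 (0.92), Slc34a1 (0.89) and Cela1 (0.89). For Fgfr3 they were Sema4g (0.91), Acvr2b (0.91) and Phldb2 (0.90), and within groups Crocc (0.80), Hps3 (0.79) and Gpr137b (0.78).

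The other receptors had weaker or differently placed neighbours. Fgfr2 was most like Anxa9 (0.86), Ptpn14 (0.83) and Fxyd4 (0.82), and within groups like Patz1 (0.90), Tgfbr3 (0.86) and Sorcs3 (0.86). Fgfr1 was most like Scarb2 (0.78), Shc2 (0.75) and Emilin1 (0.74), and within groups Rpp25 (0.71) and Shc2 (0.71) were among its nearest. Fgfr4 was most like Nlrp6 (0.76), Fam169b (0.73) and Lztr1 (0.73), and within groups Mtg2 (0.77) and Acox3 (0.77) were among its nearest. Fgfrl1 had Dgat2 (0.84) first both ways, followed by Rfng (0.79) and Tmem120a (0.79) across the experiments and by Cox16 (0.82) and Spcs1 (0.78) within groups.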

How the data were processed

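Kidney RNA was sequenced from stranded mRNA libraries. Per the labels and the study's methods, the authors aligned reads with STAR 2.7.9a to GRCm38 and counted them per Ensembl gene with featureCounts 1.5.1, and they deposited raw counts, which are neither normalized nor filtered. The strand setting is not given in the sources used here. Columns of mice carry a running number and an animal code but no group, and were assigned to groups through the header of the study's own table of raw counts. The column of anti-GBM FGF23 mouse NTS14 carries the code NTS4, as that of a healthy vehicle mouse does, and was named by its running number. Columns of slices were assigned by the letter (V for vehicle, F for FGF23) and number in their names, matched to the labels. In the study's slice table a row of group letters contradicts its treatment row. The letters in the column names follow the treatment row, which was used, and the direction of each slice comparison rests on it. All columns were used. CPM is counts scaled to the TMM library size, and CPM per kilobase divides it by the longest coding transcript.

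Each experiment was fitted separately over all genes that passed filterByExpr (minimum count 10) with edgeR 4.0.16 (quasi-likelihood test, TMM, R 4.3.3), with disease as the mean of the vehicle and FGF23 contrasts and p-values adjusted by Benjamini-Hochberg over all genes tested. Unless another test is named, each p and SE in the report is from that fit, called at an adjusted p below 0.05. DESeq2 1.42.0, the study's own tool, was an alternative. Shares and values relative to markers were compared by 2-sided exact permutation tests (scipy 1.17.1), adjusted over 8 and 4 values. The fits and permutation tests were tested on simulated data. Replicate libraries of a group differed by at least 2.12 times the sampling noise (chi-square per degree of freedom), so none was counted as a duplicate. Precision is that of the counts: a mouse library held 8482 to 27798 Kl counts, a slice library 272 to 797.

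Genes named beyond the members were at most the 4 smallest p-values among those called per list, plus Fgf23, Cyp24a1, Cyp27b1 and the 3 genes most like each member, of which some are not reported here. Adam10, single markers and single libraries were named after their values were seen. The members and lists were chosen with earlier results of these data known.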

Additional observations from a re-analysis of the deposited data

Results flagged for a closer look

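In 4 of 54 sets, each of 1 member in 1 group of 4 libraries, 1 library lay apart from the other 3 by Dixon's criterion at 95%. Chance reaches this in about 1 set in 20, and the sets share libraries between members, so they are not independent. Kl was 976 CPM in anti-GBM vehicle mouse NTS5, against 610.1 to 659.9 CPM in the other 3 mice of that group. Kl was 72.3 CPM in slice culture 1F with FGF23, against 25.4 to 29.3 CPM in the other 3 cultures. Fgfr4 was 51.1 CPM in healthy C57BL/6 vehicle mouse NTS3, against 45.2 to 45.9 CPM in the other 3 mice. Fgfr4 was 55.8 CPM in healthy BALB/c vehicle mouse Ad4, the lowest of its group, against 62.6 to 63.8 CPM in the other 3 mice.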

How the results depend on the processing

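For anti-GBM disease the 3 members called became 0 when an absolute log2 fold change above 1 was also required and 1 with the FGF23 groups only, and leaving out 1 mouse gave 2 to 5. With no filter the count stayed at 3, with Klb gained and Fgfr1 lost. Kl (-0.70 to -0.55) and Fgfr3 (-0.61 to -0.47) stayed called whichever mouse was left out. For Adriamycin nephropathy 0 members called became 1, Klb, with no filter and with DESeq2. Fgfr3 with FGF23 in anti-GBM mice, near 0, turned sign to 0.00013 with RLE normalization, 0.016 with no filter, 0.00679 with 10 counts in every sample, 0.000821 with DESeq2 and 0.0019 with the 2 groups only. In Adriamycin mice it turned to 0.00042 with DESeq2 and 0.0013 with the 2 groups only. With the FGF23 groups only, Fgfr2 in anti-GBM disease was -0.21, and in Adriamycin nephropathy Fgfr1 was 0.024 and Fgfr4 0.020. Set against proximal in place of distal markers, the Kl difference was -0.050 in anti-GBM disease (no longer called) and 0.11 in Adriamycin nephropathy. The cause was not tested.

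Leaving out 1 library turned the sign of these log2 fold changes, none of them called: in anti-GBM disease Fgfr2 (-0.032 to 0.19), in Adriamycin nephropathy Fgfr1 (-0.034 to 0.022) and Fgfr2 (-0.012 to 0.10), with FGF23 in healthy C57BL/6 mice Fgfr4 (-0.0082 to 0.13), in anti-GBM mice Fgfr2 (-0.24 to 0.016), Fgfr3 (-0.080 to 0.076) and Kl (-0.20 to 0.092), in healthy BALB/c mice Fgfr1 (-0.092 to 0.013), in Adriamycin mice Fgfr3 (-0.042 to 0.060), in the Adriamycin interaction Fgfr2 (-0.086 to 0.18) and Kl (-0.14 to 0.032), and in slices Fgfr1 (-0.060 to 0.15) and Fgfr4 (-0.13 to 0.021). The anti-GBM difference in Fgfr2 share was 1.33 to 2.64 points, called without mouse NTS10 (exact permutation test, adjusted p = 0.0249), and the Adriamycin difference in Fgfr4 share was -0.21 to 0.53 points. Fgfr1 minus fibroblast markers in Adriamycin nephropathy was 0.38 to 0.61.

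Slices share replicate numbers, but same-numbered cultures deviated together in 3 of 4 pairs only (r = 0.107, 0.105, -0.105 and 0.112), so the numbers were not taken as pairs. With the replicate block 0 members and 0 genes were called, 912 genes against 738 had an unadjusted p below 0.05, and Kl was 0.47 (adjusted p = 0.839). The mice were not analyzed as pairs, since each mouse belonged to 1 group only. Klb, at 0 to 22 counts, is limited by depth.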
